A study of Homo sapiens with 12 samples.

Results

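The elements described here are the older primate members of the LINE-1 (L1) family, the L1PA7 to L1PA17 subfamilies, in RNA bound to V5-tagged ZC3H18 (Z18) proteins. They were chosen by subfamily name, as every element listed with a read in at least 1 library from 12 subfamilies (L1PA7, L1PA8, L1PA8A, L1PA10, L1PA11, L1PA12, L1PA13, L1PA14, L1PA15, L1PA15-16, L1PA16 and L1PA17), counting only reads on the strand of the element. Of the 1509971 repeat elements listed on their own strand in at least 1 library, 36946 were members. Of these, 27451 were listed in Z18truncZnFmut replicate 3, the library with the most.

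A375 is an established human melanoma cell line. The cells were transiently transfected with 1 of 4 pcDNA3.2 plasmids, all carrying a V5 tag, and were labelled from 24 h later with 4-thiouridine, a nucleoside that crosslinks RNA to protein under ultraviolet light. Bound RNA was pulled down with anti-V5 and sequenced (PAR-CLIP). Clover, a fluorescent protein, was the control, Z18fl was full-length ZC3H18, Z18trunc was a truncated ZC3H18, and Z18truncZnFmut, called the mutant from here on, was the truncated protein with an aromatic mutant of its zinc finger. There were 3 libraries for each construct. The immunoprecipitation was done in triplicate. Whether the 3 came from separate transfections is not stated outright, so p-values measure the spread between these libraries, which may be partly technical. The methods state that complexes were not selected by protein size, and they name no selection of reads by T-to-C change before counting. A higher count of an element can therefore come from more of its RNA in the cells, from more of its RNA per pulled-down protein or from more protein pulled down, and these cannot be told apart here.

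ZC3H18 is a CCCH zinc-finger protein that links the cap-binding complex on new nuclear transcripts to RNA surveillance. L1 elements are retrotransposons that copy themselves through an RNA intermediate. The L1PA subfamilies followed each other through primate evolution, a larger number naming an older subfamily, and only the youngest, L1HS, still moves in humans. Most old copies lack their start, cannot move, and lie in introns or between genes, where they are read as parts of longer transcripts. The strand of an L1 that encodes its proteins is rich in A.

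The members had a median length of 993 bases, and 1350 of 36946 were 6 kb or longer. Their median divergence from the subfamily consensus was 11%, against 4% for the 28318 elements of L1HS to L1PA6 and 14% for the 15970 elements of L1MA1 to L1MA4. On the element's strand the median member was 39.7% A and 21.5% T. In the central 150 bases of the 35667 members that long, AATAAA, the letters of the main polyadenylation signal, occurred on the element's strand in 21.3%, against 13.1% of the same window in all 1267753 listed elements. Other L1 groups also held it often, with 16.01% of L1HS to L1PA6 and 27.98% of L1MA1 to L1MA4. A run of AAAAAA, which can overlap an AATAAA, occurred in 29.2% of members and 26.6% of all elements, below the 37.8% of L1HS to L1PA6 and 34.4% of L1MA1 to L1MA4. TTTATT and TTTTTT on the element's strand read as AATAAA and AAAAAA on the other strand. They were found on the element's strand in 3.47% and 1.83% of members and in 5.37% and 4.75% of all elements.

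The sequences of 2 member elements are shown whole, since they were the elements that met the naming rule given with the loci further on. They come from hg38 and run 5′ to 3′ on the element's strand, as RNA with T for U. AATAAA, which would be in capitals, occurs in neither.
L1PA13 at chr2:131266944-131267038, plus strand, whole: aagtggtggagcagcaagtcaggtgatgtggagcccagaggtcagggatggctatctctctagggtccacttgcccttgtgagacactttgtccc
L1PA15-16 at chr21:9013111-9013254, plus strand, whole: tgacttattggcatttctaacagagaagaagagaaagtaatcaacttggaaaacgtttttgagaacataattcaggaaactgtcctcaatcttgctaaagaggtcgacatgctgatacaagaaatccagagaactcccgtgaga

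The L1PA13 fragment holds 19 A and 23 T in 95 bases and had a divergence of 26.3%, with a smaller part of A than the median member. The L1PA15-16 fragment holds 54 A and 35 T in 144 bases.

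The libraries held between 16683132 and 25686948 aligned fragments, with the 3 Clover libraries lowest at up to 17673644. Z18truncZnFmut replicate 3 stood apart. It listed 27451 members, against 3327 to 11040 in the other 11 libraries, and 62.6% of its member reads were on the element's strand, against 72.3% to 87.1% elsewhere. The mutant's sums, shares, ratios and counts of calls against Clover are therefore also given without this library. Uniquely mapping reads made up 64.4% to 74.9% of member counts in the 12 libraries, and the rest were shared out by the counting program.

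Reads on the members were more frequent with each ZC3H18 construct than with Clover. Counted per 1000000 aligned fragments (CPM), the members summed to 1166, 1018 and 1059.8 in the 3 Clover libraries. Z18fl gave 2346, 2213 and 2955. Z18trunc gave 3225, 3298 and 2864. Z18truncZnFmut gave 2436, 2127 and 4471. Every library of the 3 constructs lay above every Clover library, and the mutant's spread came from replicate 3. The means were 1081 ± 76.3 (SD, n = 3) with Clover, 2505 ± 396 with Z18fl, 3129 ± 232 with Z18trunc and 3011 ± 1273 with the mutant, which are 2.32-fold, 2.89-fold and 2.78-fold of Clover. The mutant was 2.11-fold of Clover without replicate 3. The two-sided exact permutation test gave p = 0.1 for each construct against Clover, the smallest p that 3 libraries against 3 allow, and 0.15 after Benjamini-Hochberg adjustment over the 75 such tests made here. Z18trunc against Z18fl overlapped (exact p = 0.2), as did Z18truncZnFmut against Z18trunc (exact p = 1), although without replicate 3 the mutant was 0.729 of Z18trunc with no overlap.

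**Figure D1:**
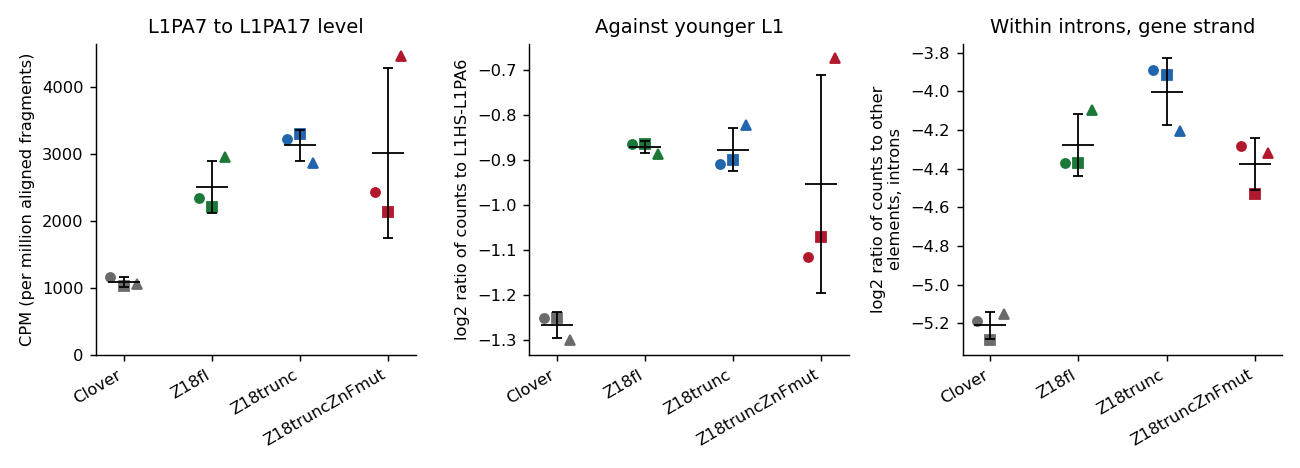
Each point is 1 library (circle, square and triangle for replicates 1, 2 and 3), with the mean and SD of 3 libraries. The left panel plots member CPM, where Clover sits at 1018 to 1166 and every other library at 2127 or above. The middle and right panels plot log2 ratios of member counts to L1HS to L1PA6 counts and to all other intronic elements, and Clover is lowest in both.

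The difference from Clover was not equal across L1 ages. As a share of all LINE counts, members made up 11.02% ± 0.104 with Clover, 14.4% ± 0.598 with Z18fl, 15.3% ± 0.947 with Z18trunc and 13.5% ± 0.826 with the mutant, with no overlap between Clover and any construct. The mutant's share was 13.9% without replicate 3. Against the younger L1HS to L1PA6, which include the copies nearest to active L1, the log2 ratio of member counts was -1.25, -1.25 and -1.30 in Clover. It was -0.86, -0.86 and -0.89 with Z18fl, -0.91, -0.90 and -0.82 with Z18trunc, and -1.12, -1.07 and -0.67 with the mutant. The difference from Clover was 0.40 for Z18fl, 0.39 for Z18trunc and 0.31 for the mutant, and 0.17 for the mutant without replicate 3. Without that library both mutant values lay between Clover and Z18trunc.

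Against the next older L1 group, L1MA1 to L1MA4, the order was turned. The log2 ratio was 2.24, 2.35 and 2.42 with Clover, 2.13, 2.22 and 2.05 with Z18fl, 1.99, 1.98 and 1.87 with Z18trunc, and 2.01, 2.05 and 1.63 with the mutant. All 9 libraries of the constructs were below all 3 of Clover. The differences from Clover were -0.20, -0.39 and -0.44, and that of the mutant was -0.31 without replicate 3. Among these 3 groups, L1PA7 to L1PA17 thus lay between their younger and older relatives in the size of the difference from Clover. Each of these differences had p = 0.1 in the exact permutation test. The groups also differed in mapping. Uniquely mapping reads made up 57.3% of L1HS to L1PA6 counts, 70.5% of member counts and 73.5% of L1MA1 to L1MA4 counts.

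Summed by subfamily and tested with edgeR's quasi-likelihood test among all subfamilies of the 6 repeat classes, 12 of 12 were higher in Z18fl than in Clover (20.1% of 914 subfamilies tested) and 12 of 12 in Z18trunc (15.7% of 924). In raw CPM all 12 also stood above Clover in every library of each construct, where the background share was 60.2% for Z18fl, 54.7% for Z18trunc and 48.7% for Z18truncZnFmut. CPM is not corrected for the total of repeat reads. The log2 fold changes after TMM scaling ran from 0.46 to 1.13 in Z18fl, with a median of 0.73 against -0.01 over all subfamilies. In Z18trunc they ran from 0.68 to 1.44, with a median of 1.08 against 0.01. Scaled to aligned fragments, the medians were 1.20 against 0.46 and 1.53 against 0.48. The comparisons with Clover share its 3 libraries.

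**Figure D2:**
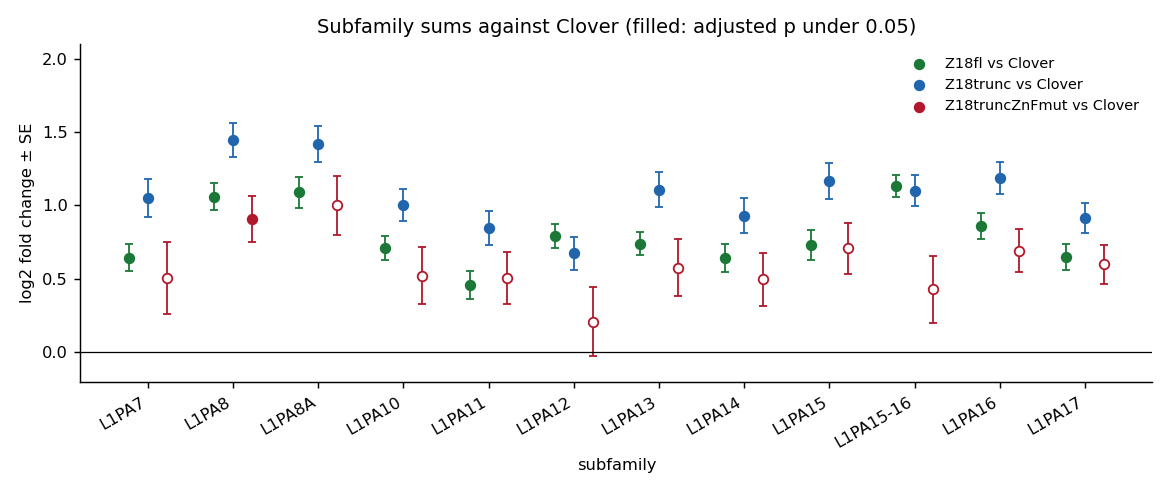
The y axis is the log2 fold change of each subfamily's summed counts against Clover, with its standard error, for the 12 subfamilies on the x axis and 3 constructs by colour. Filled points passed an adjusted p of 0.05, which are all 24 of Z18fl and Z18trunc and only L1PA8 in Z18truncZnFmut.

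L1PA8 and its relative L1PA8A had the highest values in Z18trunc. L1PA8 was at 59.4, 53.3 and 49.9 CPM with Clover, 146, 138 and 186 with Z18fl, 204, 213 and 188 with Z18trunc, and 146, 124 and 326 with the mutant. Its log2 fold change against Clover was 1.06 ± 0.09 (SE) in Z18fl and 1.44 ± 0.12 in Z18trunc (edgeR adjusted p = 2.97e-07 and 4.91e-08). L1PA8A stood at 1.09 ± 0.10 and 1.42 ± 0.12.

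L1PA7, the youngest of the 12, held 34.0% of member counts. It was at 406, 363 and 391 CPM with Clover, 779, 727 and 1012 with Z18fl, 1156, 1157 and 965 with Z18trunc, and 869.9, 736 and 1368 with the mutant. The log2 fold changes were 0.64 ± 0.09 in Z18fl and 1.05 ± 0.13 in Z18trunc (edgeR adjusted p = 3.64e-05 and 6.15e-06). L1PA11 had the lowest value in Z18fl, 0.46 ± 0.09 (edgeR adjusted p = 0.00101).

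L1PA12 and L1PA15-16 did not follow the order of the other 10, in which Z18trunc was above Z18fl. L1PA12 gave 41.9, 36.0 and 42.5 CPM with Clover, 92.3, 91.3 and 105 with Z18fl, 86.5, 93.1 and 84.5 with Z18trunc, and 73.5, 65.6 and 106 with the mutant. L1PA15-16 gave 33.0, 30.3 and 27.9 with Clover, 88.9, 87.6 and 101 with Z18fl, 90.8, 90.5 and 87.3 with Z18trunc, and 62.7, 60.3 and 92.9 with the mutant. In both, the Z18fl and Z18trunc libraries overlapped. These libraries also overlapped in L1PA7, L1PA8A, L1PA10, L1PA14, L1PA15 and L1PA16, so overlap does not set L1PA12 and L1PA15-16 apart. Only 53.9% of L1PA12 counts came from uniquely mapping reads, the least of the 12, against 74.1% for L1PA15-16. Their log2 fold changes of Z18trunc over Z18fl were -0.17 ± 0.09 and -0.09 ± 0.09, neither called.

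Z18truncZnFmut differed from Clover in 1 of 12 subfamilies (1.3% of 920 tested), L1PA8, with a log2 fold change of 0.91 ± 0.15 (edgeR adjusted p = 0.033). That call was lost with the replicate block, without the filter, and without Z18truncZnFmut replicate 1 or 2 or any 1 Clover library. L1PA8A stood at 1.0 ± 0.20 and L1PA16 at 0.69 ± 0.15, both with an adjusted p of 0.054. All 12 values were above 0, from 0.21 in L1PA12 to 1.0 in L1PA8A, and 9 had an unadjusted p under 0.05. DESeq2 called 6. Without Z18truncZnFmut replicate 3 all 12 were called, from 0.46 in L1PA12 to 1.19 in L1PA8A, so this library decided the count. For the counts at unadjusted p, by DESeq2 and without this library, the share of all subfamilies is not given here. They therefore do not set the members apart from other repeats.

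Z18trunc and Z18fl did not differ in any subfamily sum by edgeR (1.48% of 947 were higher). Unadjusted, 7 of the 12 had p under 0.05, and DESeq2 called 1. The values ran from -0.17 to 0.38. Without Z18trunc replicate 3, 10 were called higher in Z18trunc. That library listed 11040 members, against 7139 and 7301 in replicates 1 and 2. Its share of member reads on the element's strand was 77.5%, against 87.1% and 86.3%. Z18truncZnFmut was below Z18trunc in all 12, from -0.25 in L1PA17 to -0.62 in L1PA15-16, with 0 called by edgeR or DESeq2 (0% of 956 were called lower) and 4 at an unadjusted p under 0.05. Scaled to aligned fragments, L1PA8A, L1PA11, L1PA15, L1PA16 and L1PA17 were above 0 in that comparison. For the counts at unadjusted p, by DESeq2 or with a library left out, no share of all subfamilies is given here.

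Single elements passed the filter on low counts only where some group had enough reads, so few of the listed members were tested and these had to be high somewhere. Of 655 members tested for Z18fl against Clover, 442 were higher and 31 lower (28.3% and 24.6% of the 12098 elements tested). Of 772 tested for Z18trunc, 561 were higher and 19 lower (22.5% and 13.4% of 13204). Of 508 tested for Z18truncZnFmut, 288 were higher and 1 lower (12.3% and 4.83% of 10152), and 229 were higher and 0 lower without Z18truncZnFmut replicate 3. The share of all elements called without that library is not given here. The median log2 fold changes of the members tested were 1.55, 1.86 and 1.24, against 0.01, -0.03 and -0.05 over all elements tested. Scaled to aligned fragments the medians were 1.91, 2.21 and 1.43 against 0.37, 0.31 and 0.15.

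**Figure D3:**
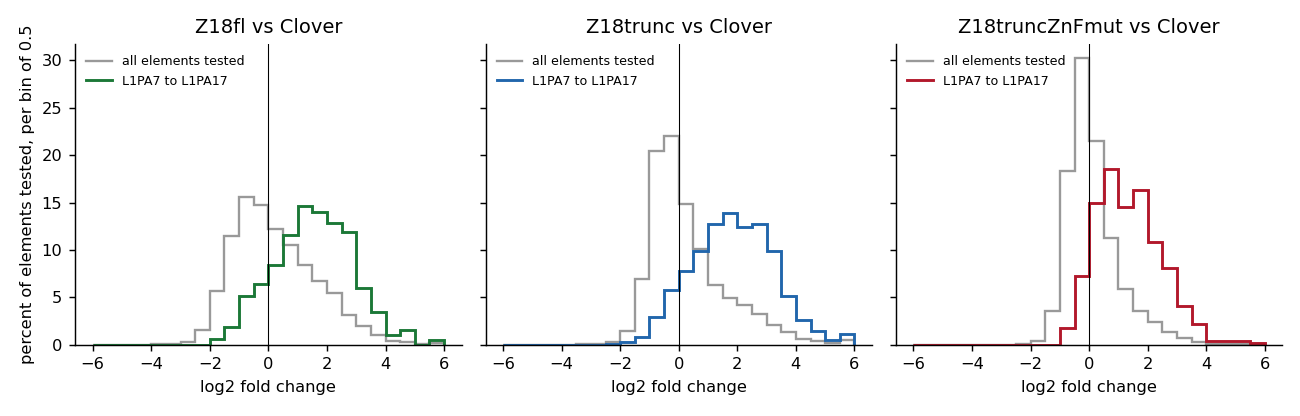
The x axis is the fitted log2 fold change of single elements against Clover in bins of 0.5, and the y axis the percent of the elements tested in each bin, with values past 6 in the last bin. Coloured lines are L1PA7 to L1PA17 (655, 772 and 508 elements) and grey lines all elements tested. The members' medians were 1.55, 1.86 and 1.24 and those of all elements 0.01, -0.03 and -0.05.

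Fewer elements differed between the ZC3H18 proteins. Z18trunc against Z18fl had 53 members higher and 19 lower of 1120 tested (2.62% and 3.13% of 19413). The 53 became 10 without Z18trunc replicate 1, 25 without Z18trunc replicate 2, and 8 without Z18fl replicate 1 or 2. Z18truncZnFmut against Z18trunc had 6 higher and 13 lower of 1026 (0.368% and 0.351% of 16833). The 13 became 0 without any 1 of the 3 Z18trunc libraries, 6 without Z18truncZnFmut replicate 2 and 1 with the replicate block. The 6 became 1 without Z18trunc replicate 1 or 3, 2 without Z18trunc replicate 2 or Z18truncZnFmut replicate 2, and 3 without Z18truncZnFmut replicate 3 or with the replicate block. The members' median was 0.24 in the first comparison and -0.30 in the second, against 0.01 over all elements tested in each. In the second, 748 of 1026 members were below 0. Scaled to aligned fragments, the medians were 0.32 against 0.08 and -0.47 against -0.16.

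Members that lie in introns, on the strand of the gene, differed most from Clover. Gene context was taken from GENCODE, and of the 36946 members 25.1% were intronic, 26.1% antisense to a gene, 48.0% between genes and 0.706% mostly exonic. Intronic members stood at 467, 402 and 426 CPM with Clover, 1277, 1190.0 and 1628 with Z18fl, 1786, 1829 and 1474 with Z18trunc, and 1243, 1068 and 1658 with the mutant. The ratio of means to Clover was 3.16, 3.93 and 3.06, and 2.67 for the mutant without replicate 3.

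Intergenic members stood at 403, 353 and 368 CPM with Clover, 686, 655 and 866 with Z18fl, 927, 959 and 901 with Z18trunc, and 743, 666 and 1804 with the mutant. The ratios to Clover were 1.96, 2.48 and 2.86, and 1.88 for the mutant without replicate 3. Members antisense to a gene stood at 197, 171 and 165 with Clover, 269.7, 259.7 and 329 with Z18fl, 381, 377 and 387 with Z18trunc, and 322, 285 and 879 with the mutant. Their ratios were 1.61, 2.15 and 2.79, and 1.71 for the mutant without replicate 3. Replicate 3 was the highest of the 12 libraries in both of these classes, but not among intronic members. Exonic members, only 261 elements, differed least, with ratios of 1.21, 1.26 and 1.26, and 1.22 for the mutant without replicate 3.

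**Figure D4:**
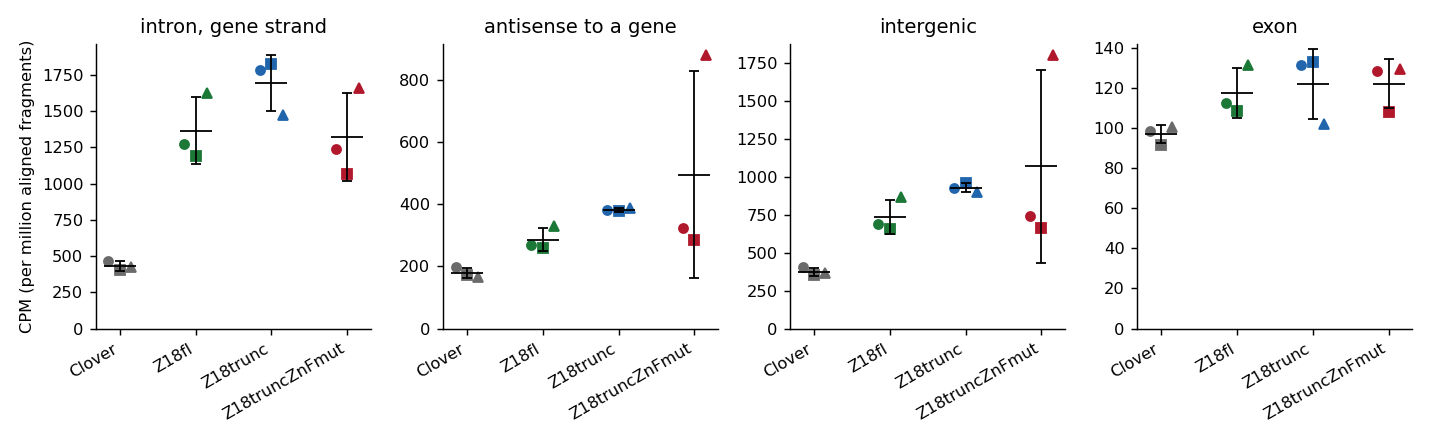
The y axes are member CPM, each starting at 0, for members in introns on the gene strand, antisense to genes, between genes and in exons. Points are libraries (circle, square and triangle for replicates 1, 2 and 3) with mean and SD. Clover is lowest in all 4 panels, and Z18truncZnFmut replicate 3 is far above its group in the antisense and intergenic panels.

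The intronic share of member counts was 40.1%, 39.5% and 40.2% in Clover, 54.4%, 53.8% and 55.1% in Z18fl, and 55.4%, 55.5% and 51.5% in Z18trunc. In Z18truncZnFmut it was 51.0%, 50.2% and 37.1%. The mutant overlapped Clover only through replicate 3, and its other 2 libraries lay between Clover and the lowest Z18trunc library. The share of member reads on the element's own strand moved alongside, at 72.3% to 75.7% with Clover and 81.7% to 85.7% with Z18fl. It was 77.5% to 87.1% with Z18trunc and 62.6% to 84.5% with the mutant. Without replicate 3 the mutant's mean own-strand share was 81.7%, which was 8.20 points above Clover with no overlap. The part of the own-strand share in the other results was not tested.

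Other repeat elements in introns were also more frequent with the constructs, and members exceeded them. The log2 ratio of intronic members to all other intronic elements was -5.19, -5.29 and -5.15 with Clover, -4.37, -4.37 and -4.09 with Z18fl, -3.89, -3.91 and -4.20 with Z18trunc, and -4.28, -4.53 and -4.32 with the mutant. The difference from Clover was 0.93, 1.21 and 0.83, and 0.80 for the mutant without replicate 3. The mutant was 0.37 below Z18trunc with no overlap, and 0.40 below without replicate 3. Between genes the same ratio differed from Clover by 0.75, 0.84 and 0.52, again with no overlap. All of these had p = 0.1 in the exact permutation test.

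The other elements can be narrowed to the introns of the 4124 genes that carry a listed member in an intron. All intronic members lie in these genes, so their ratios of 3.16, 3.93 and 3.06 to Clover are those given above. The other elements in these introns were 1.91, 2.04 and 2.09 times their Clover level. Without replicate 3 the mutant's values were 2.67 for the members and 1.72 for the other elements. The number of these genes with any member count was 945 to 1116 with Clover, 1733 to 1832 with Z18fl, 1743 to 2131 with Z18trunc, 1546 and 1673 with the mutant replicates 1 and 2, and 3241 in replicate 3. The 8 genes with the most member counts held 18.5% to 20.2% of intronic member counts in Clover and 12.4% to 17.3% in the other libraries. These 8 were picked after their values were seen, by their counts summed over the 12 libraries.

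MIR31HG, the long noncoding host transcript of miR-31, held 9 listed members. Their sum was 25.8, 20.8 and 25.1 CPM with Clover, 72.1, 63.9 and 82.7 with Z18fl, 121, 124 and 98.9 with Z18trunc, and 75.5, 60.7 and 70.4 with the mutant. The groups did not overlap except Z18fl with the mutant. The ratios to Clover were 3.05, 4.78 and 2.88 for the members and 2.37, 2.84 and 2.16 for the other elements in its introns. In GPHN, which encodes the synaptic scaffold protein gephyrin, 12 members gave ratios of 4.00, 5.83 and 4.30, against 3.06, 4.36 and 3.09 for the other elements.

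FNIP1, whose protein binds folliculin, carried 2 members, and 97.9% of their counts came from 1 of them. They gave 3.18, 2.28 and 3.06 CPM with Clover, 15.5, 13.2 and 22.1 with Z18fl, 29.7, 30.8 and 21.3 with Z18trunc, and 22.1, 19.0 and 19.9 with the mutant. The ratios were 5.97, 9.61 and 7.17, the highest of the 8 genes in each construct, against 2.54, 3.2 and 2.85 for the other elements of its introns. LINC03009 showed the same members-over-others order, with 2.98, 3.29 and 2.56 against 1.21, 1.13 and 1.22.

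PLEKHB2 was the exception among the 8 in having Z18fl on top. Its 7 members gave 16.3, 10.7 and 12.6 CPM with Clover, 37.8, 40.6 and 40.4 with Z18fl, 26.6, 30.1 and 25.7 with Z18trunc, and 21.8, 20.3 and 19.5 with the mutant, with no overlap between any groups. ZNF155, a zinc-finger gene, was the only one of the 8 with Z18fl below Clover. It gave 20.3, 18.3 and 20.3 with Clover, 12.1, 11.1 and 17.3 with Z18fl, 21.4, 23.9 and 14.998 with Z18trunc, and 26.0, 20.8 and 24.0 with the mutant. TBL1X gave ratios of 2.67, 3.11 and 2.31, against 2.69, 1.95 and 1.93 for its other elements, and the lncRNA ENSG00000287474 3.02, 3.65 and 2.60 against 1.82, 2.14 and 1.88. As in FNIP1, 1 member held most of the gene's member counts in PLEKHB2 (55.0%), ZNF155 (78.1%), TBL1X (72.3%) and LINC03009 (59.8%). In MIR31HG, GPHN and ENSG00000287474 the largest member held 28.9%, 23.7% and 35.9%. Without replicate 3 the mutant's ratios for the members of the 8 genes ran from 1.19 in ZNF155 to 7.25 in FNIP1, against 1.20 and 7.17 with it.

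**Figure D5:**
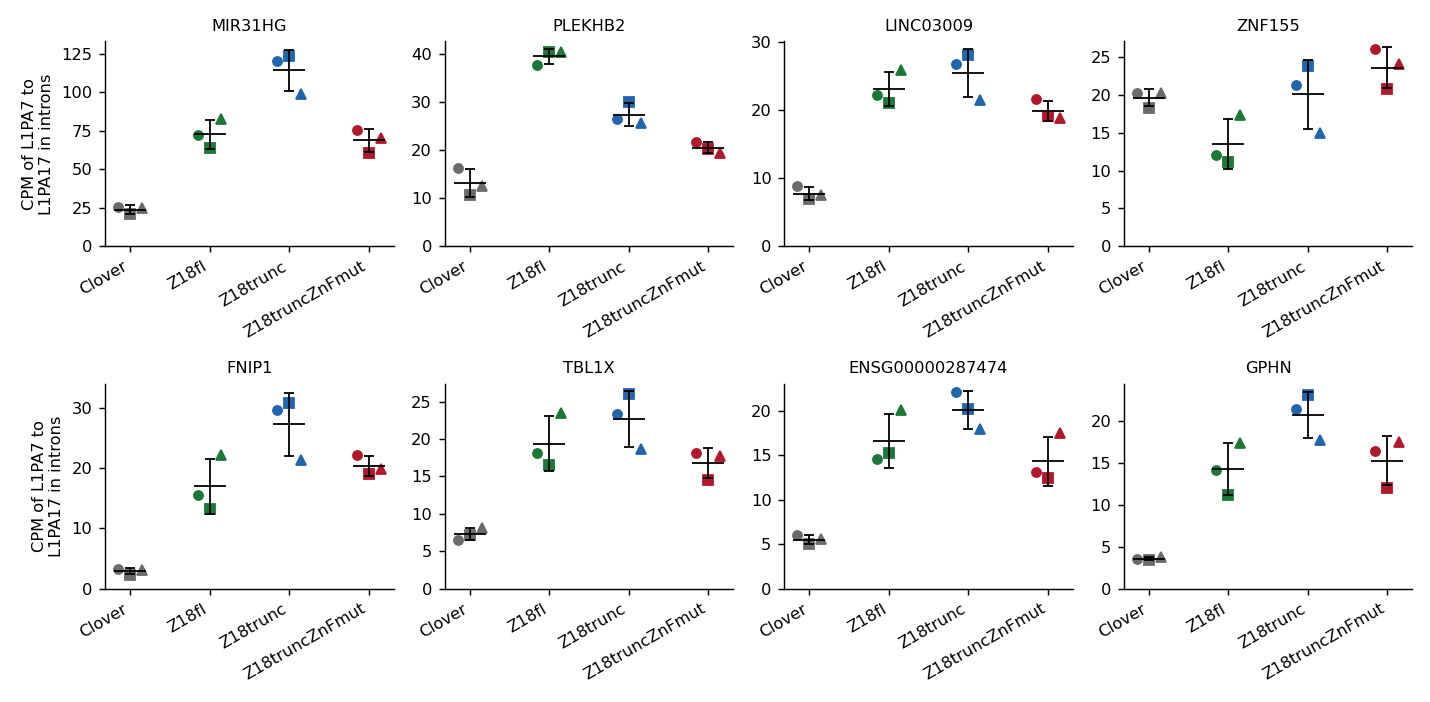
CPM of intronic members, each axis from 0, in the 8 genes with the most such counts. Points are libraries (circle, square and triangle for replicates 1, 2 and 3) with mean and SD. Clover lies below every other library in 7 genes, and ZNF155 is the exception.

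Members in one gene share a transcript and are not independent. The 442 members higher in Z18fl included 301 in introns of 224 genes, of which 51 held more than 1, and the 561 higher in Z18trunc included 374 in introns of 260 genes, of which 74 held more than 1. The called members were longer than the listed ones, with medians of 2582 and 2642 bases against 993, and a filter on counts favours long elements.

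Long copies took a smaller share of the member counts with the constructs. Elements of 6 kb and over held 23.3% ± 1.27 of member counts with Clover, 16.98% ± 0.421 with Z18fl, 18.03% ± 0.601 with Z18trunc and 18.6% ± 2.47 with the mutant. The mutant stood at 19.995% without replicate 3. Every library of the constructs was below every Clover library (exact permutation p = 0.1), but this rested largely on the 3 members with the most counts, of which 2 are over 6 kb. Without them the share was 16.4% to 17.5% in Clover, 14.3% to 15.3% in Z18fl, 14.95% to 15.9% in Z18trunc and 14.2% to 17.2% in the mutant. The difference from Clover then moved from -6.29 to -2.14 points in Z18fl, from -5.24 to -1.25 in Z18trunc and from -4.69 to -0.91 in the mutant, which overlapped Clover. Elements of 1 to 3 kb were 2.75, 3.34 and 3.14 times their Clover level, those of 3 to 6 kb 2.64, 3.59 and 3.26 times, and those of 6 kb and over 1.70, 2.25 and 2.15 times. Elements under 1 kb were at 2.03, 2.27 and 2.48 times. Without replicate 3 the mutant's values, from the shortest class to the longest, were 1.71, 2.33, 2.53 and 1.82.

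The composition of the members that were read shifted little. Weighted by counts, their AT content was 58.7% ± 0.086 with Clover, 58.9% ± 0.161 with Z18fl, 59.2% ± 0.0584 with Z18trunc and 59.3% ± 0.694 with the mutant. No construct overlapped Clover. Without replicate 3 the mutant was at 58.94%, and its difference from Clover was 0.29 points in place of 0.69, below Z18trunc with no overlap. The count-weighted divergence was 12.5% in Clover and Z18fl, which overlapped, and 12.3% in Z18trunc. The mutant was also at 12.3%, but at 12.42% without replicate 3, between Clover and Z18trunc and overlapping neither, with the difference from Clover moving from -0.18 to -0.084 points.

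The elements with the most counts behaved unlike the group. The L1PA7 element at chr5:85582242-85588699, on the minus strand and in no annotated gene, is 6458 bases long. It had 806, 852 and 987 counts with Clover, 847, 938 and 1104 with Z18fl, 1428, 1516 and 1252 with Z18trunc and 1342, 1155 and 1214 with the mutant. In CPM these were 48.3, 49.8 and 55.8, then 36.6, 40.9 and 43.0, then 60.1, 62.6 and 52.9, then 55.5, 54.3 and 50.1. Z18fl was lowest, with no overlap with Clover or Z18trunc. The log2 fold change was -0.72 ± 0.11 in Z18fl against Clover (edgeR adjusted p = 6.04e-05, between 4.8e-07 and 0.57 over 13 alternatives, and not called without the filter). For Z18trunc against Clover it was -0.16 ± 0.11 (adjusted p = 0.258 by edgeR).

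An L1PA7 of 6359 bases at chr14:30404509-30410867, minus strand and intergenic, gave 633, 588 and 720.1 counts with Clover, 679, 634 and 951 with Z18fl, 980.0, 972 and 766 with Z18trunc and 1038, 719 and 886 with the mutant. Scaled by TMM it was 0.64 ± 0.12 log2 units lower in Z18fl (edgeR adjusted p = 0.000255), and this call was lost when libraries were scaled to aligned fragments and without the filter. The L1PA10 fragment at chr21:8988749-8989017, of 269 bases, had 541, 374.7 and 438 counts with Clover, 557, 527 and 611 with Z18fl, 552, 629 and 651 with Z18trunc and 533, 565 and 466 with the mutant. Its log2 fold change was -0.52 ± 0.13 in Z18fl (edgeR adjusted p = 0.00305), a call lost in both of those settings and without Z18fl replicate 3. Without these 3 elements the members' sum in Z18fl was 1443 CPM above Clover, against 1423 with them.

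Few elements met the rule for named loci, which asked for a minimum of 30 counts on average in the higher group, an average score there of 90 or more, and no overlap between the libraries. The score is an element's assigned counts as a percent of the reads that touched it. For Z18fl against Clover 2 elements met it, for Z18trunc 1, and none in the other comparisons. The share of all elements that met it is not given here, so these counts do not set the members apart. The L1PA13 fragment at chr2:131266944-131267038, plus strand, in an intron of PLEKHB2, had 40, 9 and 16 counts with Clover, 84.0, 102 and 89.8 with Z18fl, 68.0, 76.0 and 65.4 with Z18trunc and 61.4, 40.0 and 34.9 with the mutant. Its log2 fold change in Z18fl was 1.25 ± 0.33 (edgeR adjusted p = 0.00451, called in 13 of 13 alternatives). Clover replicate 1 was well above the other 2 Clover libraries.

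The other was the L1PA15-16 fragment at chr21:9013111-9013254, plus strand, antisense to the lncRNA ENSG00000279501. It had 14, 19.5 and 10 counts with Clover, 57.0, 65.0 and 61.0 with Z18fl, 69.0, 48.0 and 67.0 with Z18trunc and 33.0, 24.0 and 24.0 with the mutant. The log2 fold changes were 1.21 ± 0.30 in Z18fl and 1.23 ± 0.31 in Z18trunc (edgeR adjusted p = 0.00246 and 0.00428), called in 13 of 13 alternatives each. The mutant's 3 libraries lay below all libraries of the other 2 proteins. The mutant against Z18trunc was not called here (edgeR adjusted p = 0.088), and 1 of 13 alternatives called it.

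More elements met the rule once the minimums were lowered to 20 mean counts and a score of 70, a choice made after the values were seen. The ones named next have the largest fitted changes, and several had 0 or 1 Clover reads. Those passed the filter on low counts only through the constructs and had to differ, so their counts are a description, with no fold and no p. The L1PA15 element at chr1:161797141-161798331, plus strand, in an intron of ATF6, which encodes a sensor of unfolded protein, had 1, 0 and 0 counts with Clover, 24, 36 and 64 with Z18fl, 55, 48 and 36 with Z18trunc and 26, 20 and 26 with the mutant.

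An L1PA16 in an intron of FAF1 (chr1:50616979-50618422, minus strand) had 0, 0 and 1 counts with Clover, 25, 26 and 20 with Z18fl, 30.4, 58 and 23 with Z18trunc and 10, 12 and 31 with the mutant. An L1PA7 in an intron of VWA8 (chr13:41838757-41840222, minus strand) had 0, 0 and 1, then 22, 18 and 31, then 20.4, 29 and 23, then 14, 14 and 9. Every library of the constructs was above every Clover library for both.

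Neighbouring elements on the plus strand of chromosome 13, in no annotated gene, showed the same order. The L1PA16 at chr13:57429857-57433284 had 0 counts in all 3 Clover libraries, 14, 11 and 30 with Z18fl, 37, 30 and 34 with Z18trunc and 16, 13 and 30 with the mutant. The L1PA10 just before it, at chr13:57427846-57429829, had 0, 0 and 1, then 15, 18 and 22, then 52, 36 and 13, then 16, 14 and 32. They may share a transcript, so they are not independent.

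Of the other elements with 0 counts in all 3 Clover libraries, the L1PA8 at chr9:29354776-29357417, minus strand and intergenic, had 18, 14 and 24 counts with Z18fl, 30, 20 and 23 with Z18trunc and 28, 5 and 17 with the mutant. The 6376-base L1PA7 at chr21:16224330-16230705, plus strand, in an intron of the lncRNA gene MIR99AHG, had 16, 11 and 27 with Z18fl, 18, 27 and 17 with Z18trunc and 8, 19 and 23 with the mutant. The L1PA13 at chr5:104412922-104418415, plus strand and antisense to the lncRNA ENSG00000251574, had 1, 0 and 0 with Clover, 14, 10 and 36 with Z18fl, 56, 45 and 37 with Z18trunc and 27, 13 and 25 with the mutant.

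Elements that were lower than in Clover were few. The L1PA10 fragment at chr19:6584929-6585027, minus strand, in an intron of CD70, a ligand of the tumour necrosis factor family, had 21, 23 and 31 counts with Clover, 12, 12 and 20 with Z18fl, 25, 38 and 22 with Z18trunc and 35.4, 20 and 25 with the mutant. For Z18fl against Clover it passed the filter only through Clover, so its counts are a description. The L1PA13 at chr5:102612175-102613759, in an intron of LINC00491, had a log2 fold change of -1.29 ± 0.23 in Z18fl (edgeR adjusted p = 0.0002, called in 13 of 13 alternatives). In Z18trunc it was 0.88 ± 0.22 lower (edgeR adjusted p = 0.00405), a call lost with aligned fragments and without the filter. It had 45, 59 and 52 counts with Clover, 30, 38.8 and 46 with Z18fl, 54, 54 and 42 with Z18trunc and 68, 87.9 and 94 with the mutant. The 1 member called lower in the mutant, an L1PA8 antisense to DLD at chr7:107921713-107922966, had 32, 63 and 40 counts in Clover and 37, 39 and 38 in Z18truncZnFmut, and kept its call in 3 of 13 alternatives (edgeR adjusted p = 0.039).

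Between Z18trunc and Z18fl, the 6580-base L1PA11 at chr2:226586068-226592647, minus strand and intergenic, had 1, 1 and 0 counts with Clover, 23, 19 and 33 with Z18fl, 0, 4 and 2 with Z18trunc and 9, 10 and 15 with the mutant. It passed the filter only through Z18fl, so these counts too are a description.

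For the mutant against Z18trunc, the L1PA14 at chr4:33956503-33957057, minus strand, in an intron of the lncRNA ENSG00000250954, had 4, 3 and 3 counts with Clover, 57.6, 34 and 59.5 with Z18fl, 39.5, 40 and 27 with Z18trunc and 9.47, 10 and 7 with the mutant. In this comparison it passed the filter only through Z18trunc, so these counts are a description. The L1PA7 at chr15:44037773-44038517, in an intron of FRMD5, had 18, 13 and 7.95 counts with Clover, 4, 10 and 4 with Z18fl, 1, 10 and 4 with Z18trunc and 18, 40 and 29 with the mutant. This element passed the filter only through the mutant, and its counts are likewise a description.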

How the data were processed

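Anti-V5 PAR-CLIP libraries of A375 cells were analysed, 3 for each of 4 constructs. The authors trimmed reads with cutadapt (4.6) and quantified repeat elements on hg38 with SQuIRE, whose version is not given in the sources used here. The deposited tables hold, for each element and strand, counts of uniquely mapping reads, expected counts that also share out reads mapping to several elements, the score as a percent, and FPKM values, the last used only to check the tables. Each deposited table holds 1 library.

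Expected counts on the element's own strand were rounded and tested with edgeR (4.0.16, R 4.3.3), by the quasi-likelihood test with TMM scaling, a filter at 10 counts (15 in total) and Benjamini-Hochberg adjustment over all elements or subfamilies tested. Each comparison used its own 6 libraries. The code was tested on simulated data. DESeq2 (1.42.0), library sizes from aligned fragments, no filter, unique reads, either strand, all 12 libraries in 1 fit, the replicate number as a block and leaving out each library were alternatives. For sums and shares per library, an exact permutation test (two-sided, computed in Python 3.11.15) was used. The unit CPM was computed from expected counts and aligned fragments. Introns and exons came from GENCODE 44 with bedtools 2.31.1. An element was called exonic at 50% overlap or more.

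The loci named were the 3 with the most counts and, per comparison, called loci with the largest changes, no overlap between libraries, and minimums of 30 counts and a score of 90. Lower minimums of 20 and 70, the measures by gene context and length and the 8 host genes were added after the values were seen. The members and lists were chosen with earlier results of these data known. Low counts limit the single elements. Results for 1 named locus, and some sequences, are not reported here.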

Additional observations from a re-analysis of the deposited data

How the results depend on the processing

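All 12 subfamilies kept their calls against Clover for Z18fl and Z18trunc in every alternative run except that the fit of all 12 libraries lost 2 for Z18fl, L1PA7 and L1PA11. Subfamilies higher in the mutant than in Clover numbered 1, against 6 with DESeq2, 7 with aligned fragments, 0 without the filter, 3 on either strand, 5 with all 12 libraries, 0 with the replicate block, and 0 to 12 with a library left out (12 without Z18truncZnFmut replicate 3). Those higher in Z18trunc than in Z18fl numbered 0, against 1 with DESeq2 and 0 to 10 with a library left out. The share of all subfamilies or elements called in each alternative is not given here.

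Single members higher in Z18fl than in Clover went from 442 to 665 with all 12 libraries, and those higher in the mutant from 288 to 536. Members lower in Z18fl (31) became 14 with aligned fragments, 7 without the filter and 19 to 38 with a library left out (19 without Z18fl replicate 2). Members lower in Z18trunc (19) became 8 with DESeq2, 1 with aligned fragments, 0 without the filter, 10 with unique reads, 29 with all 12 libraries, 10 with the replicate block and 6 to 17 with a library left out. The 1 lower in the mutant became 0 with DESeq2, aligned fragments, no filter or unique reads, 8 with all 12 libraries, and 0 to 1 with a library left out. For Z18trunc over Z18fl, 53 higher became 35 with DESeq2, 10 without the filter, 16 with all 12 libraries, 30 with the replicate block and 8 to 69 with a library left out, and 19 lower became 9, 5, 5, 13 and 5 to 16. For the mutant over Z18trunc, 6 higher became 2 without the filter, 3 with unique reads, 3 with the replicate block and 1 to 7 with a library left out, and 13 lower became 36 with aligned fragments, 8 without the filter, 20 with unique reads, 7 with all 12 libraries, 1 with the replicate block and 0 to 12 with a library left out. Same-numbered libraries deviated together by a correlation of -0.097 to 0.030, so no common deviation by number was seen. This does not exclude pairing, and whether the numbers mark pairs is not stated.

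Directions turned mainly between the proteins. With aligned fragments the log2 fold change of the mutant over Z18trunc was 0.0045 for L1PA8A, 0.12 for L1PA11, 0.025 for L1PA15, 0.061 for L1PA16 and 0.26 for L1PA17. With a library left out, L1PA12 in the mutant over Clover ran from -0.0099 to 0.46 and L1PA15-16 in Z18trunc over Z18fl from -0.15 to 0.0023. The mutant minus Z18trunc was 496 CPM on either strand and -848 to 324 with a library left out, with -78.2 to 219 for antisense, -224 to 344 for intergenic and -10.1 to 7.01 for exonic members (-3.16 with unique reads). The other ranges of the mutant minus Z18trunc were -0.22 to 0.0048 in the log2 ratio to L1HS to L1PA6, -0.13 to 0.080 to L1MA1 to L1MA4, -0.28 to 0.37 points of AT, -0.049 to 0.097 points of divergence (-0.021 on either strand) and -0.33 to 1.97 points of the share in long elements. Z18trunc minus Z18fl ran from -0.033 to 0.0096 in the ratio to L1HS to L1PA6 (0.017 with unique reads), -1.48 to 3.32 points of the own-strand share, -1.01 to 0.98 points of the intron share (0.37 on either strand) and -0.88 to 14.6 exonic CPM. The mutant minus Clover ran from -2.74 to 8.2 points of the own-strand share, and Z18fl minus Clover was -0.012 points of divergence without the 3 members with the most counts. The cause was not tested for any of these.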
